A study of Mus musculus with 17 samples.

Results

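The 10 genes described here are markers of tissue macrophages: the complement chains C1qa, C1qb and C1qc, the receptors Csf1r, Cx3cr1, Mrc1 and Adgre1, the signalling adaptors Tyrobp and Fcer1g, and the lysosomal protein gene Cd68. They were chosen by name, and each symbol matched 1 of the 24432 gene IDs in the expression table, so that all 10 could be followed in every library. The data are bulk RNA-seq of mouse kidneys at E12.5, given as FPKM, a level scaled to transcript length and library size, for 17 libraries of mixed strain. In the 5 Foxd1-Cre libraries (genotype Ctnnb1-delta3 c/+;Foxd1) Cre driven by Foxd1 activated 1 allele of Ctnnb1, the gene of beta-catenin, in the stroma, and in the 3 Six2-Cre libraries (genotype Ctnnb1-delta3 c/+;Six2) Cre driven by Six2 activated the same allele in nephron progenitors. The remaining 9 libraries were wild type, with neither Cre nor the altered allele named in their labels. Foxd1-Cre was compared with wild-type replicates 1 to 6, and Six2-Cre with wild-type replicates 7 to 9. Neither Cre driver is a macrophage driver, and the question here is what the macrophage genes of the whole organ did when beta-catenin was activated in a neighbouring lineage.

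Macrophages reach the embryonic kidney early, many of them from yolk sac and fetal liver progenitors, and take up dying cells and debris while nephrons form. They depend on the receptor Csf1r, which binds the growth factors CSF1 and IL-34, and they are a main source of the 3 C1q chains, which assemble into the recognition part of the classical complement pathway and can also tag dying cells for uptake. Tyrobp (DAP12) and Fcer1g (the Fc receptor gamma chain) have no ligands of their own but carry ITAM motifs that pass signals from partner receptors to the kinase Syk.

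The library groups differed in depth. Estimated from the smallest steps of the values, depth was 2.88e+07 to 3.75e+07 reads per library in Foxd1-Cre and wild-type replicates 1 to 6, and 5.24e+06 to 5.8e+06 reads in Six2-Cre and wild-type replicates 7 to 9. At 1 kilobase of transcript 1 read was therefore worth 0.0266 to 0.0347 FPKM in the deeper libraries and 0.172 to 0.191 FPKM in the shallower ones. The labels do not name these library sets, so levels are compared within a set, and a difference in level between the sets cannot be told apart from a difference in how the libraries were made. Of the kidney genes, those of the Cre drivers were lower in their own mutants. Foxd1 averaged 19.9 ± 3.32 FPKM in Foxd1-Cre (SD, n = 5) and 102 ± 7.97 FPKM in wild type 1 to 6 (n = 6). Six2 averaged 18 ± 0.266 FPKM in Six2-Cre (n = 3) and 80.8 ± 8.95 FPKM in wild type 7 to 9 (n = 3). The cause of these lower levels was not tested, and they do not measure Cre activity. Ctnnb1 itself averaged 509 ± 13.2 FPKM in Foxd1-Cre against 463 ± 35.0 FPKM in wild type 1 to 6, which did not pass the test (adjusted p = 0.105, limma). It averaged 406 ± 7.05 FPKM in Six2-Cre against 343 ± 16.5 FPKM in wild type 7 to 9 (adjusted p = 0.0213, limma). A gene-level value cannot show the activated allele, because it does not separate transcripts with and without the deleted exon.

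In Six2-Cre kidneys C1qb, C1qc and Mrc1 rose by about 0.5 to 0.6 on the log2(FPKM + 1) scale, with every Six2-Cre library above every wild-type library of its set. Cx3cr1 also did not overlap and had as large an estimated change, but it narrowly missed the threshold, and the other 6 genes did not pass the test. In Foxd1-Cre kidneys none of the 10 genes passed the test, although 9 of 10 estimates were above 0. For none of the 10 did the difference between the Foxd1-Cre and Six2-Cre effects pass the test. A call here is a Benjamini-Hochberg adjusted p under 0.05 over all genes in limma's moderated linear model, fitted on log2(FPKM + 1), and errors of log2 changes are standard errors (SE). In bulk tissue fewer or more macrophages and less or more RNA of these genes per macrophage cannot be told apart.

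**Figure D1:**
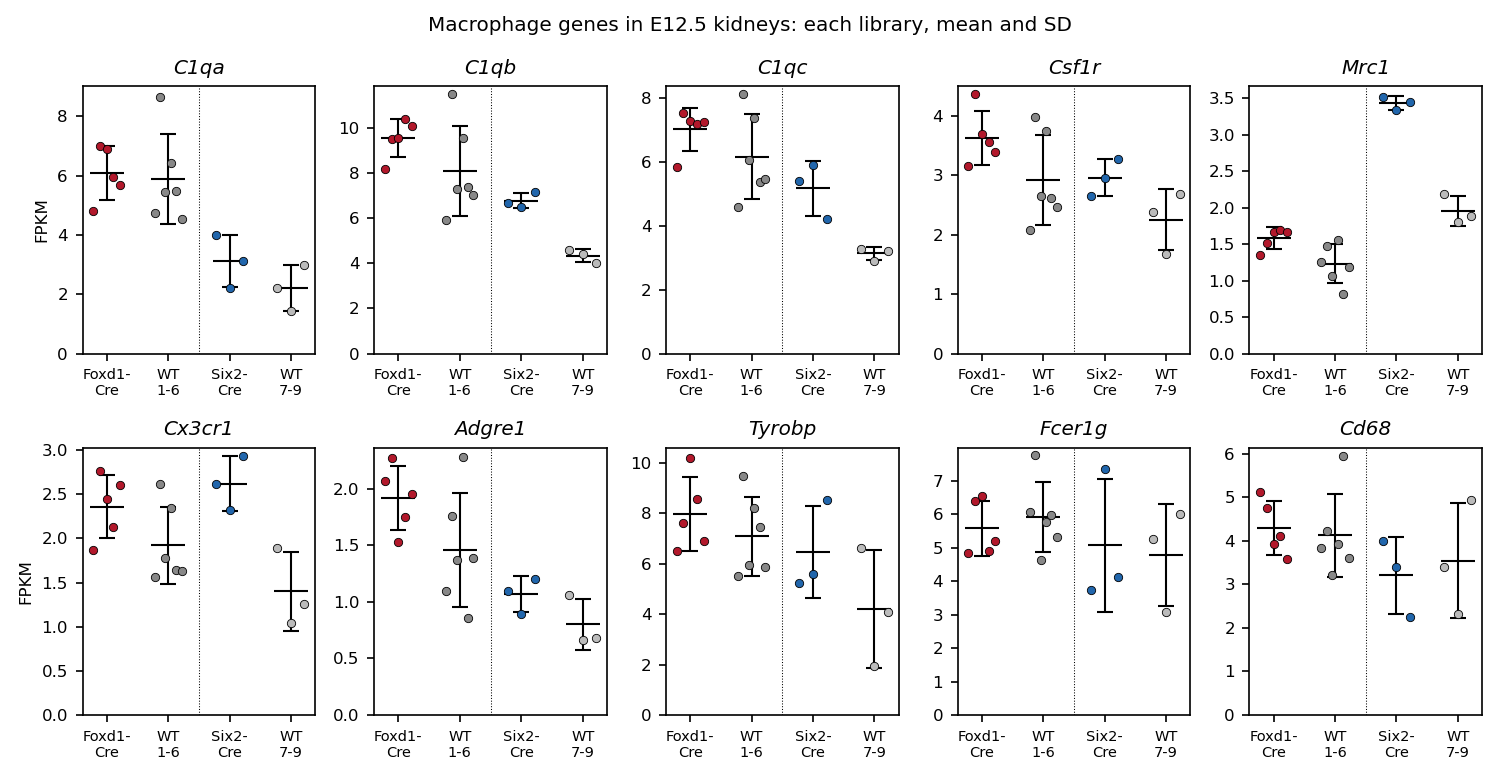
FPKM (vertical axes, each starting at 0) of the 10 macrophage genes in every library, with the mean and SD of each group; the dotted line separates the library sets. The 3 Six2-Cre points of C1qb, C1qc, Mrc1 and Cx3cr1 lie above all 3 wild-type points of replicates 7 to 9, while the Foxd1-Cre points overlap those of wild-type replicates 1 to 6 for all 10 genes.

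The 3 C1q genes lie next to each other on the minus strand of mouse chromosome 4 (GRCm38): C1qb at chr4:136880129-136886187, C1qc at chr4:136889804-136893065 and C1qa at chr4:136895917-136898803, with no other annotated gene overlapping any of them. Mrc1 lies on the plus strand at chr2:14229392-14332057 and contains the microRNA gene Mir511. Adgre1 lies on the plus strand at chr17:57358691-57483527, Tyrobp on the plus strand at chr7:30413760-30417585, Fcer1g on the minus strand at chr1:171229572-171234365 and Cd68 on the minus strand at chr11:69664213-69666153, none of them with an overlapping gene. Because C1qb, C1qc and Mrc1 were the members that passed the test in Six2-Cre kidneys, the bases before their starts are shown, 5′ to 3′ on the gene's strand. Capitals mark GAGGAA or its other strand TTCCTC, the core recognised by PU.1 (Spi1), the transcription factor that defines myeloid cells.
C1qb, chr4:136886201-136886450, minus strand: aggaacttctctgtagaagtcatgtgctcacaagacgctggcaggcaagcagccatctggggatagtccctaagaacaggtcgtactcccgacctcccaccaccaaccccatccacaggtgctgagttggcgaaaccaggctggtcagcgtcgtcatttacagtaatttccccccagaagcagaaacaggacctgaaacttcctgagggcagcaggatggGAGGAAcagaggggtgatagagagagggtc
C1qc, chr4:136893066-136893164, minus strand: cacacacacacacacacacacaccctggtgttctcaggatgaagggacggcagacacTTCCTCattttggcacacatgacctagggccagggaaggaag
Mrc1, chr2:14229164-14229391, plus strand: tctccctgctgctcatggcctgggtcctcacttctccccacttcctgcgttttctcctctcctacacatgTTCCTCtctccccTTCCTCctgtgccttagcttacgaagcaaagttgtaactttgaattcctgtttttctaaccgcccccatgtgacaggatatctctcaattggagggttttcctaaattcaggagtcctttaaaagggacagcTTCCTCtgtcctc
The sequences are from RefSeq on GRCm38.p6, and for C1qc and Mrc1 they stop at the start of the GENCODE gene, which lies before the RefSeq start. Windows were at hand for 6 of the 10 members (C1qb, C1qc, Mrc1, Cx3cr1, Fcer1g and Cd68). Within the 250 bases before the RefSeq start, C1qb held the PU.1 core once, 30 bases before it, C1qc once, 193 bases before it, and Mrc1 had 3 matches, at 180, 167 and 35 bases. Cd68, which did not pass the test in either mutant, also held it, 225 bases before its start, so 4 of 6 windows had a match, against 23.3% of the 32851 windows in the table. A RUNX core written TGNGGT (other strand ACCNCA) was found in 4 of 6 windows against 40.1% of all windows. Written as TGTGGT or TGCGGT, which was chosen after the wider count had been seen, it was found in 2 of 6 (C1qc and Cx3cr1) against 18.6%. The TCF/LEF core CTTTGAT, through which beta-catenin acts on DNA, was found in 0 of 6, against 3.21% of all windows. These matches describe letters in a window and show neither binding nor regulation.

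C1qb had 6.7, 6.51 and 7.16 FPKM in the 3 Six2-Cre libraries, against 4.59, 4.4 and 4.03 FPKM in wild-type replicates 7 to 9. The lowest Six2-Cre value lay well above the highest wild-type value, on about 38 to 45 reads in Six2-Cre and 24 to 29 reads in wild type per library. The log2 change was 0.54 ± 0.08 (95% interval 0.35 to 0.74, adjusted p = 0.00952, limma). C1qc had 5.39, 5.9 and 4.22 FPKM in Six2-Cre, against 3.28, 2.88 and 3.22 FPKM in wild type. The groups again did not overlap, though the third Six2-Cre library sat closer to wild type than the other two, and the log2 change was 0.57 ± 0.13 (95% interval 0.27 to 0.88, adjusted p = 0.0327, limma). C1qa had 4.01, 2.22 and 3.13 FPKM in Six2-Cre, against 2.22, 1.42 and 2.99 FPKM in wild type. Its groups overlapped, and the log2 change of 0.37 ± 0.24 (95% interval -0.21 to 0.94) did not pass the test (adjusted p = 0.363, limma). C1qa was also the chain with the fewest reads, 13 to 22 in Six2-Cre and 8 to 17 in wild type, and its interval includes a change as large as that of C1qb.

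In the Foxd1-Cre set the C1q chains were read more deeply and spread more widely among wild types. C1qb had 8.18, 9.51, 9.58, 10.4 and 10.1 FPKM in the 5 Foxd1-Cre libraries, against 5.94 to 11.5 FPKM (median 7.35) in the 6 wild types. All 5 Foxd1-Cre values lay inside the wild-type range, and the change of 0.24 ± 0.13 log2 did not pass the test (adjusted p = 0.31, limma). C1qc had 5.85, 7.54, 7.28, 7.19 and 7.24 FPKM in Foxd1-Cre, against 4.57 to 8.11 FPKM (median 5.76) in wild type, with a change of 0.18 ± 0.12 log2 (adjusted p = 0.395, limma). C1qa had 4.8, 7, 6.91, 5.96 and 5.7 FPKM in Foxd1-Cre, against 4.55 to 8.66 FPKM (median 5.48) in wild type, and its change was 0.05 ± 0.14 log2 (adjusted p = 0.856, limma). For all 3 chains wild-type replicate 2 was the highest of the 11 libraries.

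The chains kept much the same order throughout. Per length, C1qb was the highest chain in 17 of 17 libraries and C1qa the lowest in 14 of 17, the exceptions being wild-type replicates 1, 2 and 5, where C1qc was lowest. The ratio of C1qb to C1qc in FPKM averaged 1.36 ± 0.0727 in Foxd1-Cre and 1.31 ± 0.0742 in wild type 1 to 6. In the shallower set it averaged 1.35 ± 0.314 in Six2-Cre and 1.39 ± 0.14 in wild type 7 to 9. The summed level of the 3 chains was 14.5 to 16.1 FPKM in Six2-Cre, against 8.71 to 10.2 FPKM in wild type 7 to 9, without overlap. It was 18.8 to 24.0 FPKM in Foxd1-Cre, against 15.3 to 28.2 FPKM in wild type 1 to 6, so that the Foxd1-Cre libraries fell within the wild-type range.

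Among the receptors, Mrc1, the mannose receptor CD206 that takes up glycoproteins, had 3.52, 3.34 and 3.45 FPKM in Six2-Cre, against 2.19, 1.8 and 1.89 FPKM in wild type 7 to 9. The Six2-Cre values were nearly equal and all stood above wild type, on 99 to 108 reads in Six2-Cre and 53 to 67 in wild type. The log2 change was 0.59 ± 0.10 (95% interval 0.35 to 0.82, adjusted p = 0.0134, limma). In Foxd1-Cre, Mrc1 had 1.35, 1.51, 1.67, 1.7 and 1.67 FPKM, against 0.816 to 1.56 FPKM (median 1.22) in wild type 1 to 6. Of these 5 values 3 lay above every wild type, and the change of 0.22 ± 0.09 log2 was the only one of the 10 with an unadjusted p under 0.05 (0.0262), but it did not pass after adjustment (adjusted p = 0.128, limma). Besides macrophages, some endothelial cells carry Mrc1, and endothelial genes rose in the same Six2-Cre libraries (values are given further on), a contribution that was not tested.

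Cx3cr1, the receptor for the membrane-bound chemokine fractalkine that many tissue macrophages carry, had 2.62, 2.32 and 2.93 FPKM in Six2-Cre, against 1.89, 1.04 and 1.26 FPKM in wild type 7 to 9. The groups did not overlap, and the estimated change of 0.61 ± 0.16 log2 was as large as that of Mrc1, but wild-type replicate 7 lay closer to the mutants than the other wild types. It narrowly missed the threshold (95% interval 0.22 to 1.00, adjusted p = 0.0574, limma). In Foxd1-Cre, Cx3cr1 had 1.87, 2.76, 2.44, 2.13 and 2.6 FPKM, against 1.56 to 2.61 FPKM (median 1.71) in wild type 1 to 6, with overlap and a change of 0.21 ± 0.11 log2 (adjusted p = 0.263, limma). The annotated Cx3cr1 gene, chr9:119901616-120069879 on the minus strand, spans several other genes, among them Csrnp1 and Xirp1 on its own strand and Wdr48 and Ttc21a on the other, and since counting by strand is not stated in the sources used here its values are less certain.

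Csf1r, the survival receptor of the macrophage lineage, had 2.65, 2.95 and 3.27 FPKM in Six2-Cre, against 2.38, 1.68 and 2.68 FPKM in wild type 7 to 9. Wild-type replicate 9 overlapped the lowest Six2-Cre library, and the change of 0.29 ± 0.15 log2 (95% interval -0.06 to 0.65) did not pass the test (adjusted p = 0.244, limma). In Foxd1-Cre it had 3.15, 4.37, 3.7, 3.56 and 3.39 FPKM, against 2.08 to 3.98 FPKM (median 2.64) in wild type 1 to 6, a change of 0.26 ± 0.12 log2 (adjusted p = 0.23, limma). Csf1r lies at chr18:61100598-61132149 on the plus strand and overlaps Mir6983 and, on the other strand, Hmgxb3. Adgre1, which encodes the F4/80 surface protein used to stain mouse macrophages, was the lowest of the 10 genes in wild type 7 to 9. It had 1.1, 0.89 and 1.2 FPKM in Six2-Cre, against 1.06, 0.662 and 0.68 FPKM in wild type 7 to 9, a change of 0.20 ± 0.14 log2 (adjusted p = 0.41, limma). In Foxd1-Cre it had 2.07, 2.27, 1.53, 1.75 and 1.95 FPKM, against 0.86 to 2.28 FPKM (median 1.38) in wild type 1 to 6, a change of 0.26 ± 0.13 log2 (adjusted p = 0.246, limma). Both receptors were thus higher on average in either mutant, by less than the libraries allow to be called.

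The ITAM adaptors did not pass the test in either mutant. Tyrobp had 5.25, 5.6 and 8.55 FPKM in Six2-Cre, against 6.62, 1.95 and 4.07 FPKM in wild type 7 to 9. Wild-type replicate 8, at about 6 reads, was the lowest library of all, and the change of 0.60 ± 0.36 log2 had an interval from -0.27 to 1.46 (adjusted p = 0.327, limma). In Foxd1-Cre, Tyrobp had 6.52, 7.61, 10.2, 8.56 and 6.91 FPKM, against 5.51 to 9.5 FPKM (median 6.71) in wild type 1 to 6, a change of 0.15 ± 0.14 log2 (adjusted p = 0.556, limma). Fcer1g had 3.74, 7.36 and 4.13 FPKM in Six2-Cre, against 5.27, 3.09 and 6.02 FPKM in wild type 7 to 9. These groups interleaved, and the change was 0.06 ± 0.29 log2 (95% interval -0.64 to 0.75, adjusted p = 0.917, limma). In Foxd1-Cre, Fcer1g had 4.85, 6.41, 6.54, 4.9 and 5.2 FPKM, against 4.62 to 7.76 FPKM (median 5.87) in wild type 1 to 6. It was the only member whose Foxd1-Cre estimate lay below 0, at -0.07 ± 0.11 log2 (adjusted p = 0.757, limma). Neutrophils and mast cells also carry both adaptors.

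Cd68, a glycoprotein of late endosomes and lysosomes that is abundant in phagocytes, was the only member with a Six2-Cre estimate below 0. It had 3.99, 3.39 and 2.26 FPKM in Six2-Cre, against 3.39, 2.32 and 4.94 FPKM in wild type 7 to 9. The groups interleaved, and the change of -0.09 ± 0.25 log2 (95% interval -0.71 to 0.52) did not pass the test (adjusted p = 0.847, limma). In Foxd1-Cre it had 5.12, 4.76, 3.93, 4.11 and 3.58 FPKM, against 3.21 to 5.96 FPKM (median 3.89) in wild type 1 to 6, a change of 0.06 ± 0.12 log2 (adjusted p = 0.815, limma).

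**Figure D2:**
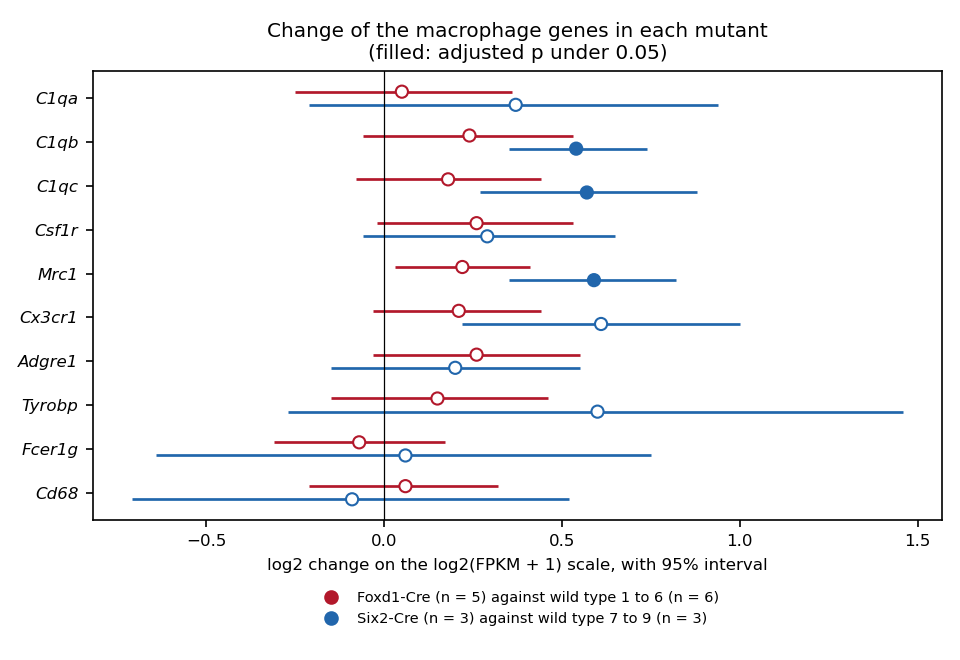
Log2 change of each macrophage gene on the log2(FPKM + 1) scale (horizontal axis), with limma's 95% interval, for Foxd1-Cre against wild type 1 to 6 (red, n = 5 and 6) and Six2-Cre against wild type 7 to 9 (blue, n = 3 and 3); filled points have an adjusted p under 0.05. Only the Six2-Cre points of C1qb, C1qc and Mrc1 are filled, and the Six2-Cre interval of Tyrobp, -0.27 to 1.46, is the widest.

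Counted together, 3 of 10 members passed the test as higher in Six2-Cre and 0 as lower, where 7.93% of the 13828 genes tested were called higher and 5.84% lower (13.8% in either direction). The median log2 change of the 10 was 0.46, against -0.01 over all genes tested, and 9 of 10 estimates were above 0, as were 48.2% of all genes. All 4 genes whose Six2-Cre and wild-type libraries did not overlap (C1qb, C1qc, Mrc1 and Cx3cr1) were higher in Six2-Cre, and 18% of all genes (2490 of 13828) were separated that way, with 17.7% separated the other way. In Foxd1-Cre, limma called 0 of 10 members, and 1 of 10 (Mrc1) had an unadjusted p under 0.05, where 8.45% of the 13996 genes tested were called higher and 4.82% lower (13.3% in either direction). There the median log2 change was 0.19, against -0.01 over all genes, and 9 of 10 estimates were above 0, as were 47.0% of all genes. In no member were the Foxd1-Cre and wild-type libraries without overlap, whereas 6.89% of all genes were separated with Foxd1-Cre higher and 3.8% with Foxd1-Cre lower. The background itself moved with the scaling: 1182 genes were called higher and 674 lower in Foxd1-Cre with the values as deposited, and 1231 higher and 408 lower when every library was brought to the same total FPKM. Macrophage genes measured in the same libraries share their cells, so the 10 are not independent observations.

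The direct comparison of the mutants took the effect in Foxd1-Cre less that in Six2-Cre. No member passed this test (0 of 10, from the limma effects, with p adjusted over 13810 genes, of which 11.0% were called in either direction, 5.76% with the larger effect in Foxd1-Cre and 5.24% with the smaller), while 2 of 10 had an unadjusted p under 0.05. The estimate was above 0 for 2 of 10 members, Adgre1 and Cd68, and for 52.8% of all genes, with a median of -0.31 log2 over the members and 0.01 over all genes. For Mrc1 the difference was -0.37 ± 0.13 log2 (95% interval -0.64 to -0.09, adjusted p = 0.0867). For C1qc it was -0.39 ± 0.17 log2 (95% interval -0.76 to -0.02, adjusted p = 0.178). Without wild-type replicate 5 the Mrc1 difference was -0.42 log2 with an adjusted p of 0.0384. That C1qb, C1qc and Mrc1 passed in Six2-Cre and not in Foxd1-Cre therefore does not show that the mutants differ.

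The calls in Six2-Cre rested on 3 libraries a group, and leaving 1 out changed some of them. C1qb kept an adjusted p between 0.0252 and 0.0451 in all 6 such fits. C1qc, with log2 changes from 0.49 to 0.69, passed only without Six2-Cre replicate 3 (adjusted p = 0.0273). It did not pass without Six2-Cre replicate 1 (0.101), Six2-Cre replicate 2 (0.0953), wild-type replicate 7 (0.0776), wild-type replicate 8 (0.0998) or wild-type replicate 9 (0.0714). Mrc1 narrowly failed without Six2-Cre replicate 1 (0.0507) or replicate 3 (0.055). Cx3cr1 passed without wild-type replicate 7 (0.0373). The number of members called ran from 1, without Six2-Cre replicate 1, to 3, and with 5 of the 6 libraries the number of genes called in the whole table was lower as well, 907 to 1467, against 1905 with all 6.

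**Figure D3:**
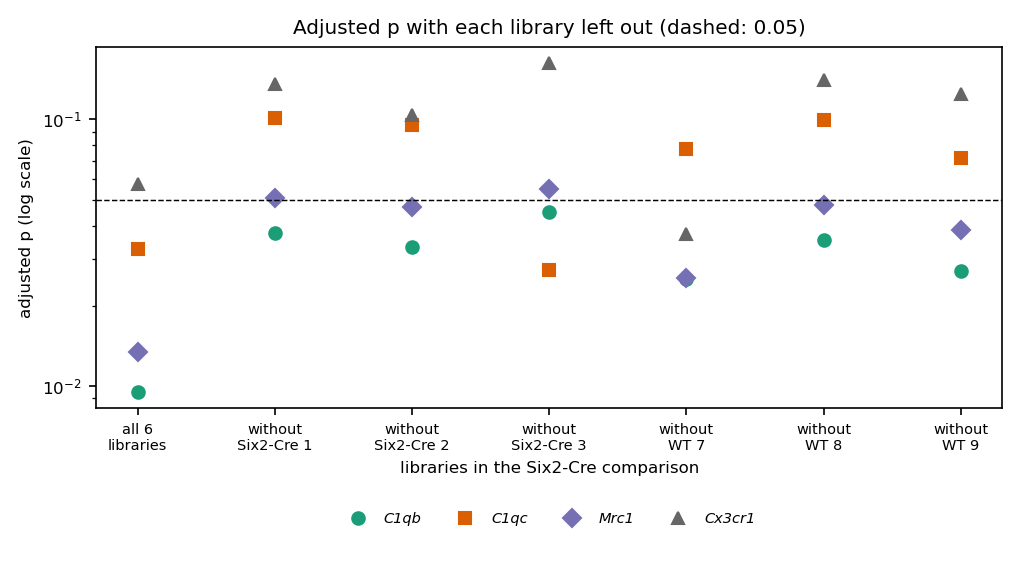
Adjusted p (vertical axis, log scale; dashed line at 0.05) of C1qb, C1qc, Mrc1 and Cx3cr1 in the Six2-Cre comparison with all 6 libraries and with each library left out in turn. C1qb stays below the line throughout, C1qc is below it only with all 6 libraries and without Six2-Cre replicate 3, and Mrc1 lies between 0.0134 and 0.055.

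Within groups, some libraries stood high or low for most members at once. Among wild types 1 to 6, replicate 2 was highest for 7 of 10 members (C1qa, C1qb, C1qc, Csf1r, Cx3cr1, Tyrobp and Fcer1g), with a summed level of 59.5 FPKM over the 10, against 36.6 to 51.2 FPKM in the other wild types of that set. Replicate 1 of Foxd1-Cre was lowest for 8 of 10 members, all but Adgre1 and Cd68, with a sum of 43.8 FPKM against 48.4 to 53.8 FPKM in the other Foxd1-Cre libraries. Wild-type replicate 8 was lowest for 9 of 10 members among wild types 7 to 9, all but C1qb, with a sum of 21.3 FPKM against 31.8 and 32.9 FPKM. The summed level was 39.0, 40.5 and 40.3 FPKM in the 3 Six2-Cre libraries, above every wild type of its set. In Foxd1-Cre it ran from 43.8 to 53.8 FPKM (median 50.2), within the wild-type span of 36.6 to 59.5 FPKM (median 41.5). The relative spread was widest for Tyrobp in wild type 7 to 9, with a coefficient of variation of 55.5%, and narrowest for Mrc1 in Six2-Cre, at 2.74%.

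**Figure D4:**
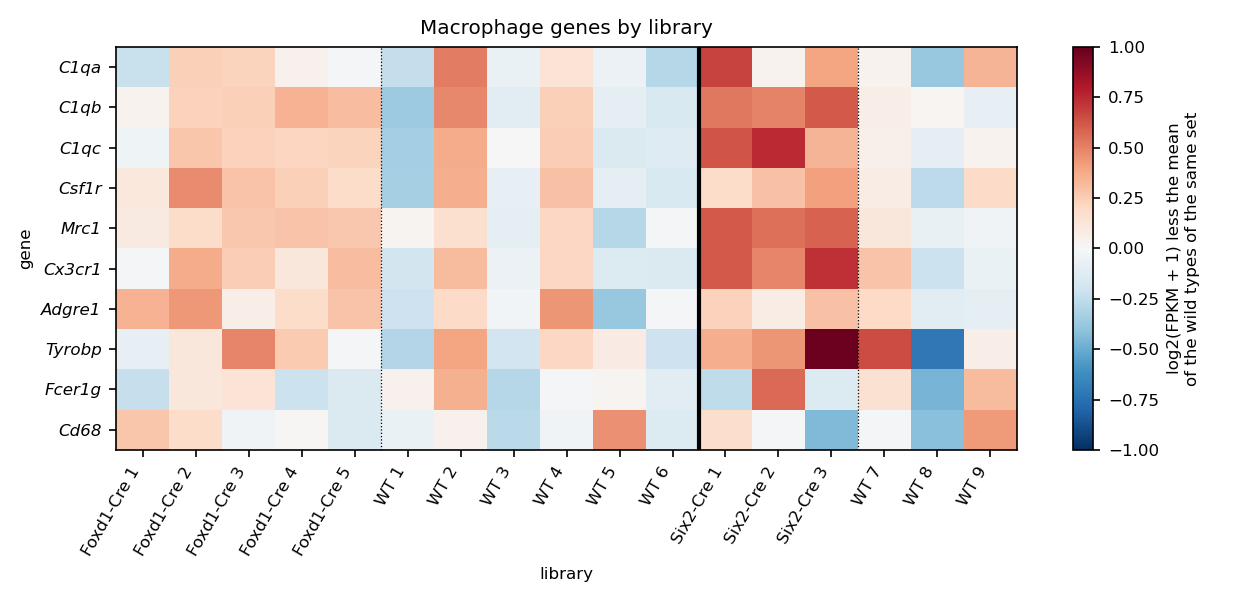
Log2(FPKM + 1) of each macrophage gene in each library, less the mean of the wild types of the same set (colour scale from -1 to 1); the thick line separates the library sets and dotted lines separate mutants from wild types. Columns tend to share a colour across genes: wild-type replicate 2 is mostly red, wild-type replicate 8 mostly blue, and the 3 Six2-Cre columns are red for C1qb, C1qc, Mrc1 and Cx3cr1.

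The order of the 10 genes by mean FPKM, a level per length, was almost the same in Foxd1-Cre and wild type 1 to 6: C1qb highest (9.55 ± 0.846 FPKM in Foxd1-Cre and 8.11 ± 2.01 FPKM in wild type), then Tyrobp, C1qc, C1qa or Fcer1g, Cd68, Csf1r, Cx3cr1, Adgre1 and, lowest, Mrc1 (1.58 ± 0.149 FPKM in Foxd1-Cre and 1.23 ± 0.269 FPKM in wild type). Neighbours in that order did not differ beyond their spread, with the exception of Csf1r and Cx3cr1 in Foxd1-Cre, whose ranges did not overlap. In Six2-Cre the order began with C1qb (6.79 ± 0.331 FPKM), Tyrobp, C1qc and Fcer1g, followed by Mrc1 (3.44 ± 0.0942 FPKM) and, lowest, Adgre1 (1.07 ± 0.16 FPKM). In wild type 7 to 9 it began with Fcer1g (4.79 ± 1.52 FPKM) and C1qb (4.34 ± 0.285 FPKM), with Mrc1 above only Cx3cr1 and Adgre1 (1.96 ± 0.206 FPKM for Mrc1) and Adgre1 last (0.801 ± 0.225 FPKM). Mrc1 was the lowest of the 10 genes in the deeper set but not in the shallower one, in mutants and wild types alike, so its place in the order differed between the library sets within the wild types too.

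Other macrophage genes gave a mixed picture. Of 36 further genes on a list of tissue macrophage markers, 35 were in the table and 21 were tested. In Six2-Cre 4 of the 21 rose and 0 fell, with a median log2 change of 0.14. The 35 summed to 146 to 157 FPKM in Six2-Cre and 100 to 111 FPKM in wild type 7 to 9. Among those that rose, Stab1, a scavenger receptor of macrophages and of some endothelium, averaged 9.51 ± 0.688 FPKM in Six2-Cre and 5.17 ± 0.5 FPKM in wild type (0.77 ± 0.09, adjusted p = 0.00483, limma). Laptm5, a lysosomal membrane protein of blood cells, averaged 4.29 ± 0.399 FPKM in Six2-Cre and 2.53 ± 0.219 FPKM in wild type (0.58 ± 0.10, adjusted p = 0.0166, limma). Apoe, a lipid carrier made by macrophages and other cells and named after its value was seen, also rose, at 34.4 ± 3.37 FPKM in Six2-Cre and 22.9 ± 2.84 FPKM in wild type (0.57 ± 0.11, adjusted p = 0.0221, limma). Aif1 (IBA1), a more restricted marker also named after its value was seen, did not pass, at 1.55 ± 0.582 FPKM in Six2-Cre and 1.75 ± 0.778 FPKM in wild type (-0.10 ± 0.26, adjusted p = 0.847, limma). In Foxd1-Cre 1 of the 21 rose, and 0 fell, with a median of 0.06.

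The ligands of Csf1r and Cx3cr1 and the transcription factors of the macrophage lineage made a list of 12, of which 11 were tested. Cx3cl1, fractalkine, the ligand of Cx3cr1, had 1.4, 1.29 and 1.82 FPKM in Six2-Cre, against 0.702, 0.727 and 0.651 FPKM in wild type 7 to 9. The groups lay apart, and it rose by 0.56 ± 0.13 log2 (adjusted p = 0.0374, limma). Csf1, a ligand of Csf1r, named after its value was seen, had 2.88, 3.53 and 2.87 FPKM in Six2-Cre, against 2.48, 1.55 and 2.27 FPKM in wild type, a change of 0.41 ± 0.15 log2 that did not pass (adjusted p = 0.133, limma). Il34, the other ligand, was too low to be tested, at no more than 0.25 FPKM in any library. In Foxd1-Cre, Cx3cl1 (-0.12 ± 0.07 log2, adjusted p = 0.33) and Csf1 (-0.01 ± 0.05 log2, adjusted p = 0.955) did not pass limma's test.

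Of the transcription factors, Spi1 (PU.1), named after its value was seen, averaged 1.15 ± 0.177 FPKM in Six2-Cre and 0.826 ± 0.415 FPKM in wild type 7 to 9 and did not pass (0.26 ± 0.19 log2, adjusted p = 0.427, limma). Runx1, a factor of blood cell formation that mesenchymal cells can also make, had 13.3, 15.1 and 13.2 FPKM in Six2-Cre, against 0.503, 0.45 and 0.578 FPKM in wild type 7 to 9. That rise of 3.30 ± 0.09 log2 (adjusted p = 8.33e-05, limma) was several times larger than that of any member. Zeb2, needed for tissue macrophage identity but also made by stroma, rose by 0.85 ± 0.11 log2 in Six2-Cre (adjusted p = 0.00589) and by 0.94 ± 0.10 log2 in Foxd1-Cre (adjusted p = 3.77e-05, limma). Id3, an inhibitor of DNA-binding factors that Kupffer cells need, rose by 0.65 ± 0.06 log2 in Six2-Cre (adjusted p = 0.0026) and by 0.43 ± 0.09 log2 in Foxd1-Cre (adjusted p = 0.00842, limma). In Foxd1-Cre Cebpa (0.31 ± 0.07 log2, adjusted p = 0.0116) also rose, and Maf fell by 0.35 ± 0.08 on the log2 scale (adjusted p = 0.0133, limma). Runx1 was called higher there too (0.21 ± 0.05 log2, adjusted p = 0.0149, limma). Its levels were only 0.351 to 0.431 FPKM in Foxd1-Cre, against 0.121 to 0.27 FPKM in wild type 1 to 6. Only the Six2-Cre libraries reached the 1 FPKM that testing required, so this call near the floor carries little weight. The Six2-Cre call has a limit too, because Runx1 was tested only through the group in which it was high. In all, 4 of 11 rose and 0 fell in Six2-Cre, and 5 rose and 1 fell in Foxd1-Cre, with Runx1 counted among those that rose in each. Their levels, up to 413 ± 40.2 FPKM for Id3 in Foxd1-Cre and 307 ± 39.7 FPKM in wild type 1 to 6, were in several cases far above those of the 10 members.

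Other complement genes moved in both directions. Of 29 further complement genes 15 were tested, with 2 higher and 2 lower in Six2-Cre (median log2 change 0.11) and 1 higher and 3 lower in Foxd1-Cre (median -0.12). In Six2-Cre the genes that rose were Cd93, a surface protein of endothelium and myeloid cells once described as a C1q receptor (0.62 ± 0.07 log2, adjusted p = 0.00461, limma), and Lrp1, an endocytic receptor for many ligands (0.44 ± 0.07 log2, adjusted p = 0.0104, limma). Among those that fell was C1qbp, a largely mitochondrial protein that binds C1q, by 0.26 ± 0.05 on the log2 scale (adjusted p = 0.0264, limma). The proteases C1ra and C1s1 complete the C1 complex with C1q, and C1s1 averaged 1.94 ± 0.164 FPKM in Six2-Cre and 1.73 ± 0.185 FPKM in wild type 7 to 9, which did not pass the test (0.11 ± 0.11 log2, limma). In Foxd1-Cre C1s1 averaged 0.707 ± 0.29 FPKM against 1.82 ± 0.661 FPKM in wild type 1 to 6 and fell by 0.71 ± 0.18 on the log2 scale (adjusted p = 0.0198, limma). Masp1, a protease of the lectin pathway, averaged 33.5 ± 2.77 FPKM in Foxd1-Cre and 15 ± 1.65 FPKM in wild type 1 to 6 (1.11 ± 0.08 log2, adjusted p = 1.65e-06, limma). Cd59a, an inhibitor of the membrane attack complex, also fell in Foxd1-Cre, by 0.34 ± 0.10 on the log2 scale (adjusted p = 0.0448, limma). Masp2, whose locus overlaps Tardbp on the other strand, was called lower there by 1.17 ± 0.22 on the log2 scale (adjusted p = 0.00408, limma). It had 0.0619 to 0.717 FPKM in Foxd1-Cre, against 1.16 to 3.96 FPKM in wild type 1 to 6. Masp2 thus reached the 1 FPKM that testing required mainly through the group in which it was high, and this call near the floor carries little weight.

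Downstream of Tyrobp and Fcer1g, 9 of 22 listed ITAM partners were tested, and the same 2 genes rose in each mutant. Syk, the kinase that binds phosphorylated ITAMs, averaged 12.2 ± 0.977 FPKM in Six2-Cre and 4.74 ± 0.351 FPKM in wild type 7 to 9 (1.20 ± 0.09 log2, adjusted p = 0.00125, limma). It averaged 6.65 ± 0.521 FPKM in Foxd1-Cre and 4.33 ± 0.394 FPKM in wild type 1 to 6 (0.52 ± 0.06 log2, adjusted p = 0.000135, limma). Lyn, a Src family kinase, rose by 0.60 ± 0.13 log2 in Six2-Cre (adjusted p = 0.0315) and by 0.19 ± 0.05 log2 in Foxd1-Cre (adjusted p = 0.0247, limma). Both are also made outside blood cells.

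Of 19 engulfment genes 18 were tested, with 8 higher in Six2-Cre and 7 in Foxd1-Cre and none lower in either (limma). Pros1, a bridging ligand between dying cells and the Mertk family of receptors, rose by 0.91 ± 0.10 log2 in Six2-Cre (adjusted p = 0.00335) and by 0.79 ± 0.07 log2 in Foxd1-Cre (adjusted p = 7.03e-06, limma). Gas6, the related ligand, rose in Foxd1-Cre by 0.74 ± 0.10 log2 (adjusted p = 0.000319, limma) and had 0.01 ± 0.15 log2 in Six2-Cre (adjusted p = 0.971). Of 18 lysosomal genes 17 were tested, with 6 higher in Six2-Cre and 1 in Foxd1-Cre, among them Npc2 (0.30 ± 0.05 log2, adjusted p = 0.0167), Ctsz (0.36 ± 0.07 log2, adjusted p = 0.0253) and Cd63 (0.20 ± 0.04 log2, adjusted p = 0.0238) in Six2-Cre (limma). Cells of every type carry lysosomes, and Cd68, the lysosomal member, did not pass the test in either mutant.

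**Figure D5:**
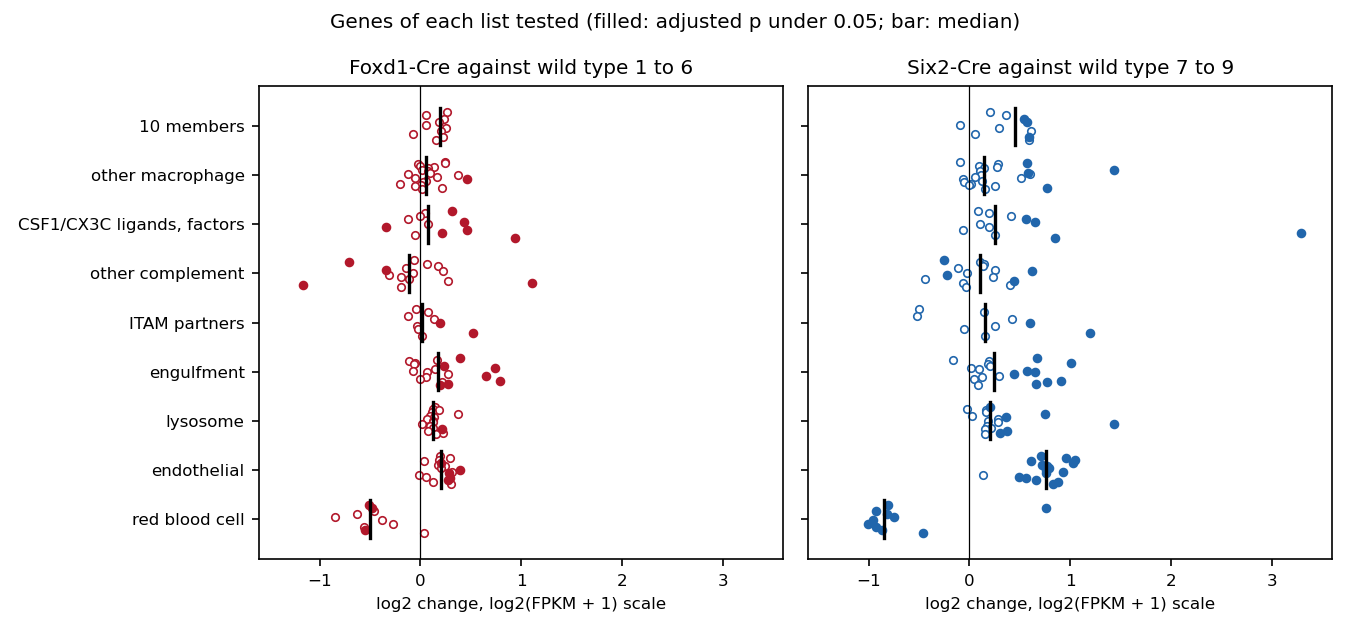
Log2 change on the log2(FPKM + 1) scale (horizontal axes) of each tested gene of 9 lists in Foxd1-Cre (left) and Six2-Cre (right); filled points have an adjusted p under 0.05 and bars mark list medians. In Six2-Cre the median of the 10 macrophage genes, 0.46, lies between those of the other macrophage genes, 0.14, and of the endothelial genes, 0.76, and red blood cell genes lie mostly below 0.

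Markers of other cell types moved in the same Six2-Cre libraries in which C1qb, C1qc and Mrc1 were higher. Of 17 endothelial genes 16 rose (median 0.76 log2), and their summed level was 411 to 421 FPKM in Six2-Cre, against 256 to 270 FPKM in wild type 7 to 9. Of 10 tested red blood cell genes 9 fell and 1, Epor, rose, with a summed level over the 13 in the table of 4470 to 5650 FPKM in Six2-Cre against 8910 to 10700 FPKM in wild type. Of 12 kidney lineage genes 8 fell and 0 rose, with sums of 452 to 474 FPKM in Six2-Cre against 633 to 703 FPKM in wild type. Of 4 monocyte and neutrophil genes tested, of 14 listed, none passed, but the neutrophil genes S100a8 and S100a9 had 3.21 and 3.99 FPKM in Six2-Cre replicate 2 and 12 and 9.91 FPKM in replicate 3, while both were listed at 0 in Six2-Cre replicate 1 and in all 3 wild types of that set. The sum of the 14 was 29.1 to 51.8 FPKM in Six2-Cre, against 26.9 to 39.6 FPKM in wild type 7 to 9, and 9 of the 14 were at 0 in all 3 of those wild types. On average most of these sums was Plac8, at 25.9 ± 2.14 FPKM in Six2-Cre and 29.8 ± 6.27 FPKM in wild type. Among the Six2-Cre libraries, C1qb, Csf1r, Cx3cr1, Adgre1 and Tyrobp were highest in replicate 3, C1qc and Fcer1g in replicate 2, and C1qa, Mrc1 and Cd68 in replicate 1. The part of neutrophil RNA in these values was not tested. Of 5 tested genes of mast cells and megakaryocytes 1 rose, Kit (1.42 ± 0.11 log2, adjusted p = 0.0013, limma), and of 3 tested lymphoid genes 1 fell, Gata3, which kidney cells also make. The 13 mast cell and megakaryocyte genes summed to 34.1 to 39.2 FPKM in Six2-Cre against 18.3 to 22.8 FPKM in wild type. Most of that Six2-Cre sum was Kit, at 25.4 ± 1.89 FPKM in Six2-Cre and 8.9 ± 1.23 FPKM in wild type, and the other 4 tested genes did not pass. The 12 lymphoid genes summed to 26.5 to 29.2 FPKM in Six2-Cre against 30.9 to 31.6 FPKM in wild type. Most of these sums was Gata3, at 19.0 ± 1.44 FPKM in Six2-Cre and 23.1 ± 0.826 FPKM in wild type. The part that these shifts in marker levels have in the values of the 10 macrophage genes was not tested.

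In Foxd1-Cre, where no member passed, 5 of 17 endothelial genes rose (median 0.21 log2), with sums of 381 to 471 FPKM in Foxd1-Cre against 370 to 447 FPKM in wild type 1 to 6. There 3 of 10 red blood cell genes fell and 0 rose, with sums of 3660 to 6440 FPKM in Foxd1-Cre against 4580 to 8530 FPKM in wild type. Of 12 kidney lineage genes 5 fell and 1, Wnt11, rose, with sums of 430 to 502 FPKM in Foxd1-Cre against 689 to 772 FPKM in wild type. Most of the gap between these sums lay in Aldh1a2 and in Foxd1, the gene of the Cre driver. Aldh1a2 averaged 82.1 ± 7.36 FPKM in Foxd1-Cre and 232 ± 12.6 FPKM in wild type, and Foxd1 19.9 ± 3.32 FPKM and 102 ± 7.97 FPKM. None of the tested monocyte, neutrophil, mast cell, megakaryocyte and lymphoid genes passed (limma). The sum of the 14 monocyte and neutrophil genes was 38 to 48.4 FPKM in Foxd1-Cre against 40.3 to 96.7 FPKM in wild type. On average most of these sums was Plac8, at 37.4 ± 2.86 FPKM in Foxd1-Cre and 42.2 ± 3.95 FPKM in wild type. The highest of these sums was that of wild-type replicate 5, in which S100a8 reached 21.9 FPKM and S100a9 19.3 FPKM, and the same library had the highest Cd68 (5.96 FPKM) and the lowest Mrc1 (0.816 FPKM) and Adgre1 (0.86 FPKM) of its group. Of the chemokine genes, Cxcl12, which stroma and endothelium make and blood cells follow, averaged 246 ± 16.6 FPKM in Six2-Cre and 131 ± 24.3 FPKM in wild type 7 to 9 (0.91 ± 0.13 log2, adjusted p = 0.00863, limma). It averaged 102 ± 15.9 FPKM in Foxd1-Cre and 176 ± 27.6 FPKM in wild type 1 to 6 (-0.79 ± 0.12 log2, adjusted p = 0.00104, limma). It was the only one of the 5 tested chemokines that passed in either mutant.

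Across the 17 libraries, the genes whose pattern came nearest to the mean of the 10 members were Grrp1, Hcls1, Cd248, Tcn2 and Il11ra1. Likeness was the root mean square difference in log2(FPKM + 1) less the wild-type mean of the same set, and it was 0.0972 for Grrp1, 0.103 for Hcls1, 0.105 for Cd248, and 0.106 for Tcn2 and for Il11ra1. A flat profile was 0.23 away from the members' mean, the median of the 13800 other genes was 0.275, and 3234 genes were nearer than the flat profile. Hcls1, a blood cell cytoskeletal protein, averaged 1.96 ± 0.346 FPKM in Six2-Cre and 1.26 ± 0.209 FPKM in wild type 7 to 9, and 2.01 ± 0.233 FPKM in Foxd1-Cre and 1.67 ± 0.187 FPKM in wild type 1 to 6. Cd248 (endosialin), a marker of stroma and pericytes and so of another cell type, averaged 26.5 ± 0.628 FPKM in Six2-Cre and 19.2 ± 1.03 FPKM in wild type 7 to 9, and 32.3 ± 3.11 FPKM in Foxd1-Cre and 29.1 ± 4.23 FPKM in wild type 1 to 6. In Six2-Cre, Cd248 passed the test (0.45 log2, adjusted p = 0.00524, limma), as did Tcn2 and Il11ra1, and Grrp1 and Hcls1 did not, while none of the 5 passed in Foxd1-Cre.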

How the data were processed

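Groups and replicate numbers of the 17 E12.5 kidney libraries come from the sample titles. Per the labels, libraries followed Illumina protocols. The tools named by the submitters' processing notes are bcl2fastq 2.17.1.14 and Salmon, and the builds GRCm38 and mm10. The authors deposited 1 table of FPKM values (24432 gene IDs, 24189 with a symbol in GENCODE mouse release 21). The step to genes, strandedness and any scaling between libraries are not given in the sources used here. Errors in the annotation of overlapping genes, and the pooling of isoforms, can therefore enter a value.

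A gene had to reach 1 FPKM in 3 or more of the 17 libraries (14014 did, all 10 members among them). Genes at 0 throughout a comparison were dropped, which left 13996 for Foxd1-Cre and 13828 for Six2-Cre. Values were taken as log2(FPKM + 1), a scale that understates the change of low genes, and fitted with limma 3.58.1 in R 4.3.3 (variance trend, two-sided, Benjamini-Hochberg over all genes tested), with a separate fit for each mutant and its own wild types. For the difference of the effects the variances were summed, with degrees of freedom after Satterthwaite (13810 genes). The scripts were tested on simulated data. Approximate reads came from the smallest steps of the FPKM values and entered no test. They cover counting error only. The labels do not say whether libraries came from separate embryos, so p-values measure the spread between these samples.

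The 10 members, the gene lists and the tests were chosen with earlier results of these data known. The genes named besides the members were Ctnnb1, up to 4 genes per list with the smallest p, any ligand, transcription factor or complement gene that passed, and the 5 of nearest pattern. Apoe, Spi1, Aif1 and Csf1 were added after their values were seen. Of the genes the rule named, 4 are counted in their lists but not reported here by name. Promoter motifs were chosen with the results known, and the narrower RUNX spelling after the count for the wider one. Members are described by counts and medians beside all genes, and no set test was run. Alternatives covered the pseudocount, filters, scaling, controls, variance model, replicate block and leaving out each library.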

Additional observations from a re-analysis of the deposited data

Results flagged for a closer look

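In groups of 4 to 10 libraries, 136 gene and group combinations were screened for a library that stood far from the rest, a screen that chance passes about 1 time in 20, and 11 were found. Of the 20 combinations that concern the 10 macrophage genes, 2 were among them. C1qc in Foxd1-Cre replicate 1 was 5.85 FPKM, below 7.19 to 7.54 FPKM in the other Foxd1-Cre libraries. Cd68 in wild-type replicate 5 was 5.96 FPKM, above 3.21 to 4.22 FPKM in the other wild types of its set. The same wild-type replicate 5 stood apart for S100a8 (21.9 FPKM), S100a9 (19.3 FPKM) and Vegfa (89.6 FPKM) as the highest and for Kdr (10.8 FPKM) as the lowest. Foxd1-Cre replicate 5 was highest for S100a8 (2.96 FPKM) and S100a9 (4.44 FPKM), and Foxd1-Cre replicate 1 lowest for Egfl7 (37.6 FPKM). Wild-type replicate 6 was highest for Cd79b (2.25 FPKM) and wild-type replicate 2 for Mif (1130 FPKM).

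The Foxd1-Cre and Six2-Cre effects were compared for 67 named genes, and 24 differed by the test of the difference itself (adjusted p under 0.05 over all genes), none of them among the 10 members. Over all 13810 genes tested, 11.0% were called. Most of the named genes were chosen for a small p in 1 of the mutant comparisons. That choice raises the count, so it is not a result about these lists. All values here are log2 effects in Foxd1-Cre less those in Six2-Cre. Among macrophage genes and factors the difference was -0.55 for Stab1, -0.48 for Laptm5, -3.09 for Runx1, -0.54 for Maf and -0.68 for Cx3cl1. Runx1 was tested only because its Six2-Cre libraries, in which it was high, reached 1 FPKM. Among complement, ITAM and engulfment genes it was 1.17 for Masp1, -0.39 for Cd93, -0.81 for C1s1, -0.68 for Syk, 0.73 for Gas6 and -0.59 for Itgb5. Among blood and endothelial genes it was -1.44 for Kit, -1.25 for Epor, 0.50 for Tfrc, -0.47 for Pecam1, -0.61 for Kdr, -0.87 for Cldn5 and -0.57 for Egfl7. For the chemokine Cxcl12 it was -1.70. Among kidney genes, some of them those of the Cre drivers, it was 0.47 for Gata3, -1.51 for Aldh1a2, -2.27 for Foxd1, 2.51 for Cited1 and 1.84 for Six2.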

How the results depend on the processing

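Foxd1-Cre called 0 of 10 members under each alternative run. In Six2-Cre, C1qb, C1qc and Mrc1 passed with pseudocount 0.1, both scalings, no variance trend and the joint fit of 4 means; C1qc failed without the filter (adjusted p = 0.0528) and with a mean of at least 5 FPKM (0.0612), where Mrc1 was no longer tested and 1 member was called. Cx3cr1 passed at the same total FPKM (0.0494) and in the joint fit (0.00814). Without the variance trend 1 member, Mrc1, was lower in the difference (-0.37 log2, adjusted p = 0.0328). Using all 9 wild types mixes the library sets: C1qb had 0.05 and C1qc 0.06 log2 and neither passed, Mrc1 (0.87) and Cx3cr1 (0.41) passed, and C1qa (-0.37), Adgre1 (-0.09) and Fcer1g (-0.13) turned negative in Six2-Cre. There Fcer1g was 0.02 in Foxd1-Cre, and the difference was 0.79 for C1qa, 0.43 for C1qb, 0.38 for C1qc, 0.23 for Csf1r, 0.27 for Tyrobp and 0.15 for Fcer1g, with 1 member called higher (Adgre1) and 1 lower (Mrc1). With all 9 wild types the genes called were 1234 in Foxd1-Cre (337 lower), 6444 in Six2-Cre (2747 higher, 3697 lower) and 8505 in the difference (5108 higher, 3397 lower). With the mean filter, which tests fewer genes, they were 1114 in Foxd1-Cre (702 higher, 412 lower), and 479 were lower in the difference. At the same total FPKM 408 were lower in Foxd1-Cre. The joint fit called 3638 in Six2-Cre (1864 higher, 1774 lower). Same-numbered Foxd1-Cre and wild-type libraries deviated from their group means with correlations of 0.0117 to 0.117, and 1 of 5 matched its own number best, so the numbers were not taken as pairs. With the replicate block in Foxd1-Cre, 1426 genes were called, no member passed and C1qa was -0.00 log2. Six2-Cre shares replicate numbers only with wild types of the other library set, so its replicate block compares across sets and is no pairing: it called 8428 genes (3577 higher, 4851 lower) and 1 member (Mrc1), with C1qa at -0.81, C1qb -0.20, C1qc -0.21, Adgre1 -0.22, Tyrobp -0.09 and Fcer1g -0.26. The causes of these shifts were not tested. With 1 library left out, the Six2-Cre fits called 907 to 1467 genes (568 to 885 higher, 339 to 582 lower) and 1 to 3 members, and the difference 0 to 1 members lower. Values that crossed 0 in such fits were C1qa (-0.00 to 0.16) and Fcer1g (-0.13 to 0.00) in Foxd1-Cre, Fcer1g (-0.20 to 0.22) and Cd68 (-0.30 to 0.12) in Six2-Cre, and Csf1r (-0.14 to 0.09), Adgre1 (-0.04 to 0.15), Fcer1g (-0.28 to 0.13) and Cd68 (-0.06 to 0.36) in the difference; none of them was called in these leave-one-out fits. Depth limits the Six2-Cre set most: its members rested on 6 to 108 reads per library. There the intervals of C1qa, Csf1r, Cx3cr1, Tyrobp and Fcer1g include changes as large as those called. That of Adgre1 reaches 0.55 and includes the change of C1qb, while that of Cd68 ends at 0.52, below the called changes.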
